A study of Homo sapiens with 3 samples.

Results

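The 30 genes described here take part in the synthesis, uptake and efflux of cholesterol in 5637 cells, an established human bladder cancer line. They were chosen by name, with earlier results of these data known, and all 30 were present among the 19225 gene symbols of the deposited table. Each was represented by the RefSeq transcript with the most reads over the 3 libraries. Cells of 2 libraries received siRNA against CDCA3, a gene of mitotic entry (siCDCA3-1 and siCDCA3-2), and cells of 1 library received a control siRNA (siNC). All 3 libraries came from cells labelled as wild type, grown in medium with serum and transfected with the same lipid reagent. Whether the numbers 1 and 2 stand for separate siRNAs or separate cultures is not in the labels. The p-values thus rest only on the spread between these libraries, which may be technical and is mostly pooled over genes. The siNC library has no replicate.

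Cells build cholesterol from acetyl-CoA by way of mevalonate, isoprenoids, squalene and lanosterol. When sterol in the endoplasmic reticulum is low, SCAP escorts the transcription factor precursor SREBP2 to the Golgi for cleavage, and the freed factor switches on genes of synthesis and uptake. INSIG proteins hold SCAP in the endoplasmic reticulum when sterol is plentiful. Oxysterols activate the LXR receptors instead, which switch on the efflux transporters ABCA1 and ABCG1 and the ubiquitin ligase MYLIP.

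Gene-level read counts totalled 40420563 in siCDCA3-1, 62389922 in siCDCA3-2 and 50912733 in siNC. Every level below is in RPKM, which divides the reads of a transcript by its length and by a total for the library. The quasi-likelihood test of edgeR, with Benjamini-Hochberg adjustment, covered 10153 genes whose mean RPKM reached 1, and all 30 genes met that minimum. It called 0 genes higher and 3 lower (0.0295%), while DESeq2 called 10 and limma called 0. CDCA3 had 0.574 RPKM in siCDCA3-1 and 1.40 RPKM in siCDCA3-2, against 5.52 RPKM in siNC. Of 15 urothelial and epithelial markers 10 had a mean RPKM of at least 1, among them KRT7 and GATA3, and the 15 together summed to 2206 and 1803 RPKM in siCDCA3-1 and siCDCA3-2, against 2627 RPKM in siNC. KRT5, a basal keratin, had 218 and 199.9 RPKM, against 421 RPKM in siNC, and its part in the values below was not tested. The uroplakins UPK1A, UPK1B, UPK2 and UPK3A and the superficial keratin KRT20, markers of differentiated urothelium, stayed under 1 RPKM in every library. In bulk RNA, fewer cells of a type and less RNA per cell cannot be told apart.

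Most cholesterol synthesis genes stood above siNC in both siCDCA3 libraries. The genes of sterol transport in cells and of efflux, and MYLIP, did not, and none of the 30 passed the adjusted threshold. With MYLIP counted under transport, these lists hold only 4 and 2 genes. Such small lists cannot set a count of 0 apart from the share of all genes given next. RPKM exceeded siNC in both siCDCA3 libraries at 17 of the 30 genes (56.7%), compared with 23.6% of all genes tested. It lay below siNC in both at 3 genes, GGPS1, NPC1 and ABCG1, where the share of all genes was 27.8%. The other 10 genes went opposite ways in the siCDCA3 libraries, as did 4929 of the 10153 genes tested. The median difference in log2(RPKM + 1) over the 30 genes was 0.29 for siCDCA3-1 minus siNC and 0.48 for siCDCA3-2 minus siNC. The medians over all genes tested were -0.07 and 0.05 in that order. Both differences use the same siNC library and are not independent of each other. Because the genes were chosen with earlier results of these data known, the shares describe the list and test nothing.

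**Figure D1:**
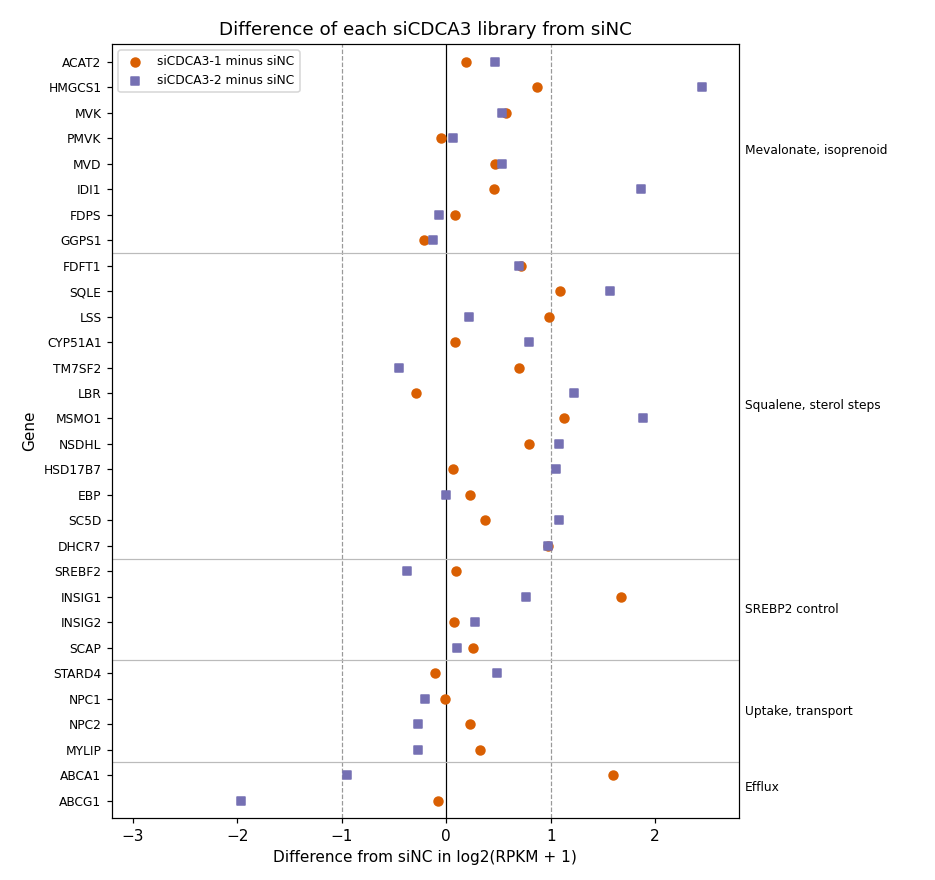
Difference from siNC in log2(RPKM + 1) on the horizontal axis for each gene on the vertical axis, grouped by step, with circles for siCDCA3-1 and squares for siCDCA3-2. Dashed lines mark a 2-fold difference; SQLE and MSMO1 lie beyond the right line in both libraries, and ABCG1 lies at -1.97 in siCDCA3-2.

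None of the 30 genes passed the edgeR threshold over all genes, and the edgeR adjusted p was 0.9997 for each of them. DESeq2 and limma also called none of them. CDCA3, the siRNA target, missed the threshold as well, with an adjusted p of 0.9997 in edgeR and 0.354 in DESeq2. A miss in these libraries thus does not show that a level was unchanged. At an unadjusted edgeR p under 0.05 stood 5 of the 30 genes, all higher: HMGCS1, IDI1, SQLE, MSMO1 and INSIG1. Over all genes tested, 0.355% were higher at that level and 0.965% lower. DESeq2 gave 7 such genes, adding SC5D and DHCR7, and limma gave 5, with DHCR7 in place of IDI1. SQLE and MSMO1 exceeded siNC by 1 or more on the log2(RPKM + 1) scale, or 2-fold, in each siCDCA3 library, that is 2 of 30 genes, beside 0.0985% of all genes tested. With a pseudocount of 0.1 the count was 4, adding HMGCS1 and DHCR7. In siCDCA3-1 alone 4 genes were 2-fold above siNC (0.847% of all genes), and in siCDCA3-2 alone 8 were (1.42% of all genes). On the same log2(RPKM + 1) scale ABCG1 was 2-fold below siNC in siCDCA3-2 (1 of 30 genes, where 3.27% of all genes were), and ABCA1 missed that size at -0.95, although its plain RPKM ratio to siNC was 0.243. Likewise 0 of 30 were so in siCDCA3-1 (1.74% of all genes) and 0 in both (0.719%). Counted singly, 24 genes were above siNC in siCDCA3-1 (41.4% of all genes) and 20 in siCDCA3-2 (54.4%).

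**Figure D2:**
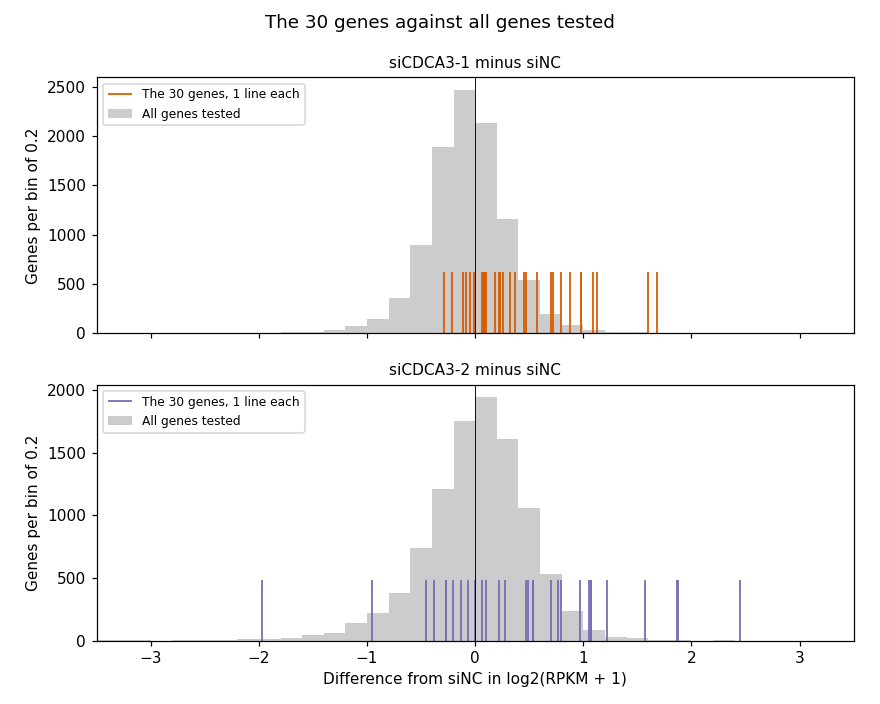
Histogram of the difference from siNC in log2(RPKM + 1) over all 10153 genes tested (grey, genes per bin of 0.2), with 1 coloured line for each of the 30 genes, siCDCA3-1 above and siCDCA3-2 below. The lines run from -0.29 to 1.68 in siCDCA3-1 and from -1.97 to 2.45 in siCDCA3-2, with most of them right of 0.

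SREBP2 and its partners NF-Y and Sp1 bind promoters of many sterol synthesis genes. Here 5 windows are shown for genes whose values differ most in kind. HMGCS1, MSMO1 and INSIG1 were higher in both siCDCA3 libraries, SREBF2 encodes SREBP2 itself, and ABCA1 differed most between the siCDCA3 libraries. Each window runs, 5′ to 3′ on the gene's own strand, from 250 bases before to 50 bases after the RefSeq gene start on GRCh38.p14. Capitals mark matches, on either strand, to the NF-Y box CCAAT, to the E-box CACGTG and to TCACNCCAC, a core of the sterol regulatory element.
HMGCS1 (chr5:43313363-43313662, minus strand): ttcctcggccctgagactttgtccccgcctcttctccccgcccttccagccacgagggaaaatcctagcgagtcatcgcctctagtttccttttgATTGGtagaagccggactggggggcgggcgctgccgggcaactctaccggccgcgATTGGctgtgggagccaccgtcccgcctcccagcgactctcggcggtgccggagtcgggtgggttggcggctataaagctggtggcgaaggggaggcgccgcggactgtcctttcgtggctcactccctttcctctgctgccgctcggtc
MSMO1 (chr4:165327419-165327718, plus strand): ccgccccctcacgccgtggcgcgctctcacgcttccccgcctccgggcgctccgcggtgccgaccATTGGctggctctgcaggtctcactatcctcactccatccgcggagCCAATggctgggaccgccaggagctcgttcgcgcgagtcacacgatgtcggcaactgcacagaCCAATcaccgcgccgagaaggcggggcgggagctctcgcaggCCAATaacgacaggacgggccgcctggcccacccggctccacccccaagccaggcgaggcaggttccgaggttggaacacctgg
INSIG1 (chr7:155297628-155297927, plus strand): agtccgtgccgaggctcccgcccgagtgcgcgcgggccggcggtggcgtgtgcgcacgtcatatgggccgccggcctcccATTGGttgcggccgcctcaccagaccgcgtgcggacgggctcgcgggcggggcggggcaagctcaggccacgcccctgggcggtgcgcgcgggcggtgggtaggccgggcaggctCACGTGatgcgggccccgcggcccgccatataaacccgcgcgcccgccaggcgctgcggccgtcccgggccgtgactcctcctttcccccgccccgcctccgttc
SREBF2 (chr22:41832855-41833154, plus strand): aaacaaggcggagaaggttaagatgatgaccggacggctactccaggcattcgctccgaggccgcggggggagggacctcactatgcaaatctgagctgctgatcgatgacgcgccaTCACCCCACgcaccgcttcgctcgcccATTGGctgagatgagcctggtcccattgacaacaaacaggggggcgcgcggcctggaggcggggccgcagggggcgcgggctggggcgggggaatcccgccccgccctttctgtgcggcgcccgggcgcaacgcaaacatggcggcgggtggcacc
ABCA1 (chr9:104928106-104928405, minus strand): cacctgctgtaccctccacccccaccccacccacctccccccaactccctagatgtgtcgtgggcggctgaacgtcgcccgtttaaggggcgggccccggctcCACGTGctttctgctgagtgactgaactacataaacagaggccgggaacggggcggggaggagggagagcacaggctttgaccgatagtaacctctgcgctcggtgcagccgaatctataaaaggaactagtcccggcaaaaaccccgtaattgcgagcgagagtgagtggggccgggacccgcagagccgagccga

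HMGCS1 held NF-Y boxes that began 155 and 100 bases before its start, and MSMO1 held 4, at 185, 139, 76 and 34 bases before it. The INSIG1 window had a single NF-Y box, 170 bases before the start, and an E-box at 55. In SREBF2 the sterol regulatory core began 133 bases before the start and an NF-Y box followed at 106. The ABCA1 window held an E-box at 147 bases before the start and no NF-Y box. Windows were matched for 26 of the 30 genes; ACAT2, FDFT1, SQLE and ABCG1 had none.

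NF-Y boxes occurred in 17 of the 26 windows (65.4%), compared with 35.7% of all 27305 promoter windows and 37% of the 8066 windows of genes tested. By level, 10 of the 14 windowed genes above siNC in both siCDCA3 libraries had one, and so did 7 of the other 12. IDI1, CYP51A1, INSIG2 and SCAP, also above siNC in both, had no NF-Y box in their windows. The GC box GGGCGG, which Sp1 binds, occurred in 23 windows (88.5%), compared with 44.6% of all windows and 72.9% of those of tested genes. TCACNCCAC was found in SREBF2 only, 3.85% of the windows, where 1.15% of all windows and 1.04% of those of tested genes held it. E-boxes were present in 5 windows, LSS, SC5D, INSIG1, SCAP and ABCA1 (19.2%, beside 7.43% of all windows and 10.7% of those of tested genes). In NSDHL an NF-Y box on each strand overlapped by 2 bases. These are letter matches in a fixed window, and binding was not measured.

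**Figure D3:**
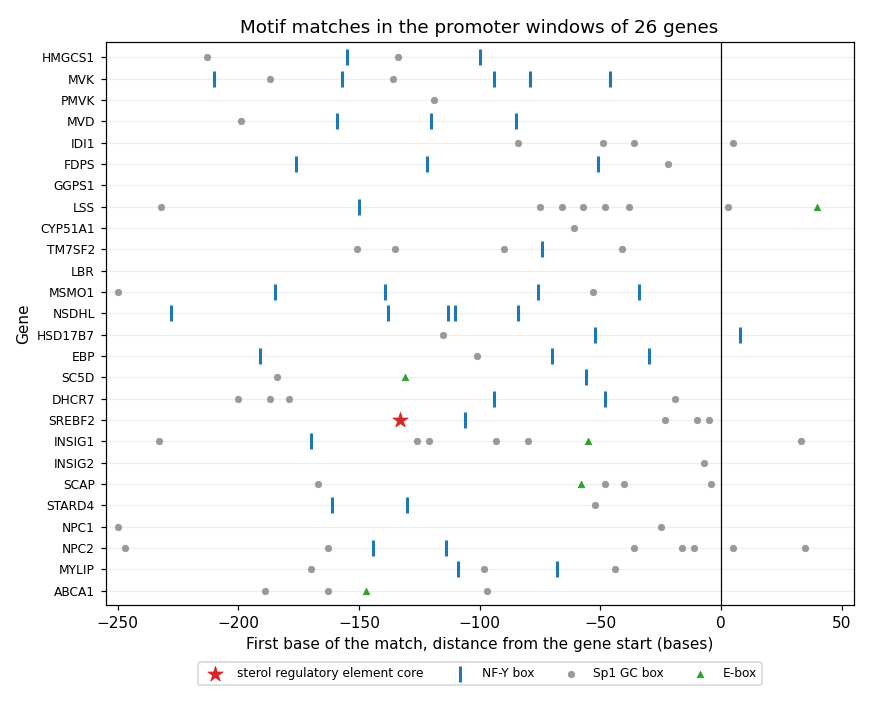
First base of each motif match, in bases from the gene start (0, vertical line), for the 26 genes with a promoter window, 1 row per gene. Blue bars mark NF-Y boxes, grey dots Sp1 GC boxes, green triangles E-boxes and the red star the sterol regulatory element core of SREBF2.

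In the mevalonate and isoprenoid steps, HMGCS1 and IDI1 stood well above siNC, above all in siCDCA3-2, while FDPS, PMVK and GGPS1 stayed near it. HMGCS1, the cytosolic synthase that makes HMG-CoA, had 6.91 RPKM in siCDCA3-1 and 22.5 RPKM in siCDCA3-2, against 3.32 RPKM in siNC. Both siCDCA3 libraries lay above siNC, and siCDCA3-2 lay 3.26-fold above siCDCA3-1 (95% counting interval 3.15 to 3.37). The ratio to siNC was 2.08 in siCDCA3-1 (1.98 to 2.19) and 6.79 in siCDCA3-2 (6.51 to 7.09), from 3935, 19788 and 2367 reads in siCDCA3-1, siCDCA3-2 and siNC. Such intervals cover counting error only, not the spread between cultures. The edgeR log2 fold change of HMGCS1 (NM_001324220.1, chr5:43287470-43313412) was 2.12 (SE 0.68, edgeR unadjusted p = 0.00837).

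IDI1, the isomerase that supplies dimethylallyl diphosphate, had 4.76 RPKM in siCDCA3-1 and 14.3 RPKM in siCDCA3-2, against 3.20 RPKM in siNC. It followed HMGCS1 in order, with siCDCA3-2 highest and siNC lowest, and edgeR gave it a log2 fold change of 1.55 (SE 0.64, unadjusted p = 0.0314). MVK, mevalonate kinase, had 7.19 and 6.98 RPKM in siCDCA3-1 and siCDCA3-2, against 4.51 RPKM in siNC. For MVD, which decarboxylates diphosphomevalonate, the siCDCA3 values were 12.04 and 12.68 RPKM, against 8.42 RPKM in siNC. Both were about as high in one siCDCA3 library as in the other. ACAT2, the cytosolic thiolase that makes acetoacetyl-CoA, had 34.1 and 41.5 RPKM in siCDCA3-1 and siCDCA3-2, against 29.8 RPKM in siNC.

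The remaining mevalonate and isoprenoid genes differed little from siNC. PMVK, phosphomevalonate kinase, had 9.10 and 9.92 RPKM in siCDCA3-1 and siCDCA3-2, against 9.44 RPKM in siNC. The sign of its small siCDCA3-1 difference, -0.05 on the log2(RPKM + 1) scale, turned to 0.03 under TMM scaling, 0.02 under median-of-ratios scaling and 0.04 under quantile normalization. FDPS, which makes farnesyl diphosphate, had the highest RPKM of the 30 genes in every library, with 83.0 in siCDCA3-1 and 74.5 in siCDCA3-2, against 78.3 in siNC. GGPS1, which makes geranylgeranyl diphosphate for protein prenylation, had 3.59 and 3.86 RPKM in the siCDCA3 libraries, against 4.31 RPKM in siNC, and was the only gene of the 20 synthesis genes below siNC in both.

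Most genes of the squalene and sterol steps stood above siNC, 9 of 12 in both siCDCA3 libraries (beside 23.6% of all genes). Of these 12 genes, 0 stood below siNC in both (beside 27.8% of all genes). Their median difference in log2(RPKM + 1) was 0.708 for siCDCA3-1 minus siNC and 1.013 for siCDCA3-2 minus siNC. Summed over the 12 genes, RPKM was 296 in siCDCA3-1 and 329 in siCDCA3-2, against 190 in siNC. MSMO1, the sterol C4 methyl oxidase, had 12.5 RPKM in siCDCA3-1 and 21.8 RPKM in siCDCA3-2, against 5.20 RPKM in siNC. It was 2.41-fold above siNC in siCDCA3-1 (2.26 to 2.56) and 4.20-fold in siCDCA3-2 (3.97 to 4.44). The edgeR log2 fold change of MSMO1 (NM_006745.4, chr4:165327669-165343164) was 1.72 (SE 0.55, edgeR unadjusted p = 0.00779).

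SQLE, the monooxygenase that commits squalene to sterols, had 31.2 RPKM in siCDCA3-1 and 44.1 RPKM in siCDCA3-2, against 14.2 RPKM in siNC. Its siNC value lay far under both siCDCA3 values, with ratios to siNC of 2.20 in siCDCA3-1 (2.13 to 2.27) and 3.11 in siCDCA3-2 (3.02 to 3.21). The edgeR log2 fold change was 1.41 (SE 0.54, edgeR unadjusted p = 0.0215). DHCR7, the reductase of a last step of the pathway, had nearly the same level in the siCDCA3 libraries, 39.96 RPKM in siCDCA3-1 and 39.91 RPKM in siCDCA3-2, against 19.8 RPKM in siNC. Its ratio to siNC was 2.01 in each. FDFT1, which makes squalene from farnesyl diphosphate, was likewise level between the siCDCA3 libraries, with 70.0 and 69.1 RPKM, against 42.2 RPKM in siNC. NSDHL, a sterol dehydrogenase that acts after MSMO1, had 14.4 and 17.7 RPKM in siCDCA3-1 and siCDCA3-2, against 7.89 RPKM in siNC.

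Other sterol genes differed from siNC by unequal amounts in the siCDCA3 libraries. LSS, lanosterol synthase, had 29.96 RPKM in siCDCA3-1 and 17.2 RPKM in siCDCA3-2, against 14.7 RPKM in siNC, so that only siCDCA3-1 stood far off. The reverse held for CYP51A1, lanosterol demethylase, with 10.9 RPKM in siCDCA3-1 and 18.4 RPKM in siCDCA3-2, against 10.2 RPKM in siNC. HSD17B7, a sterol ketone reductase, had 3.93 and 8.80 RPKM in siCDCA3-1 and siCDCA3-2, against 3.72 RPKM in siNC. SC5D, the sterol C5 desaturase, was the lowest of the 30 genes in siNC at 1.03 RPKM, beside 1.62 RPKM in siCDCA3-1 and 3.27 RPKM in siCDCA3-2. EBP, the isomerase that shifts a sterol double bond, had 59.1 and 50.2 RPKM in siCDCA3-1 and siCDCA3-2, against 50.4 RPKM in siNC.

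TM7SF2 and LBR encode proteins that both can reduce the C14 double bond of sterols, LBR also being a receptor of the inner nuclear membrane for lamins. Their levels ran in opposite directions. TM7SF2 had 11.0 RPKM in siCDCA3-1 and 4.40 RPKM in siCDCA3-2, against 6.39 RPKM in siNC. LBR had 11.2 RPKM in siCDCA3-1 and 33.9 RPKM in siCDCA3-2, against 13.9 RPKM in siNC. In siCDCA3-1 their levels were close to each other, in siCDCA3-2 LBR was far above TM7SF2, and siNC lay between. From siCDCA3-2 alone the edgeR log2 fold change was -0.60 for TM7SF2 and 1.22 for LBR, and from siCDCA3-1 alone it was 0.87 for TM7SF2 and -0.23 for LBR.

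**Figure D4:**
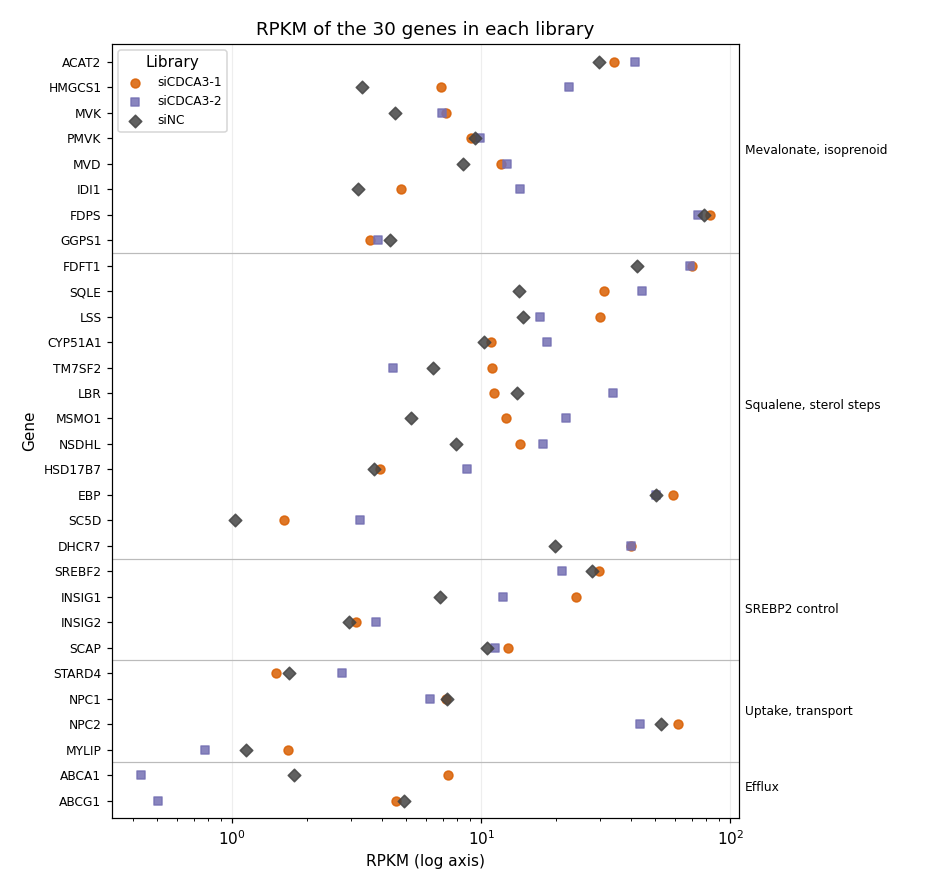
RPKM on a log axis for each of the 30 genes, grouped by step, with circles for siCDCA3-1, squares for siCDCA3-2 and diamonds for siNC, 1 library each. In the synthesis steps most diamonds lie left of both other symbols, while for ABCA1 the circle (7.34 RPKM), the diamond (1.76 RPKM) and the square (0.429 RPKM) lie far apart.

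Among the genes that control SREBP2, INSIG1 alone stood apart from siNC. INSIG1, a retention protein whose own gene is a target of SREBP2, had 23.9 RPKM in siCDCA3-1 and 12.3 RPKM in siCDCA3-2, against 6.80 RPKM in siNC. Here siCDCA3-1 was the highest library, unlike at HMGCS1 and IDI1, with ratios to siNC of 3.52 (3.37 to 3.68) in siCDCA3-1 and 1.80 (1.73 to 1.89) in siCDCA3-2. The edgeR log2 fold change of INSIG1 (NM_001346591.1, chr7:155297878-155310235) was 1.45 (SE 0.59, edgeR unadjusted p = 0.0285). Its paralog INSIG2 had 3.14 and 3.76 RPKM in siCDCA3-1 and siCDCA3-2, against 2.94 RPKM in siNC. SREBF2 had 29.8 RPKM in siCDCA3-1 and 21.1 RPKM in siCDCA3-2, against 27.8 RPKM in siNC. SCAP had 12.8 and 11.4 RPKM in the siCDCA3 libraries, against 10.6 RPKM in siNC. The ratios of these 3 genes to siNC lay between 0.760 and 1.28.

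Genes of uptake and of sterol movement inside the cell showed no common direction, and none of them encodes a lipoprotein receptor. Of these genes 0 of 4 stood above siNC in both siCDCA3 libraries, beside 23.6% of all genes, and 4 genes are too few to tell these apart. NPC1 and NPC2 export cholesterol from lysosomes. NPC1 had 7.23 RPKM in siCDCA3-1 and 6.20 RPKM in siCDCA3-2, against 7.30 RPKM in siNC, and its siCDCA3-1 difference of -0.01 was 0.06 under TMM and median-of-ratios scaling and 0.04 under quantile normalization. NPC2 had 61.6 and 43.4 RPKM in siCDCA3-1 and siCDCA3-2, against 52.6 RPKM in siNC. STARD4, a cytosolic sterol carrier, had 1.49 and 2.77 RPKM in siCDCA3-1 and siCDCA3-2, against 1.69 RPKM in siNC. MYLIP, the LXR-induced ligase that acts on lipoprotein receptors, had 1.67 and 0.776 RPKM in siCDCA3-1 and siCDCA3-2, against 1.14 RPKM in siNC. STARD4 was highest in siCDCA3-2 and MYLIP highest in siCDCA3-1, with siNC between the siCDCA3 libraries for both.

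The efflux transporters differed more between the siCDCA3 libraries than any other gene of the 30. ABCA1, which loads cholesterol onto apolipoprotein A-I, had 7.34 RPKM in siCDCA3-1 and 0.429 RPKM in siCDCA3-2, against 1.76 RPKM in siNC, from 8025, 723 and 2414 reads. The siNC value lay between the siCDCA3 values, at ratios of 4.16 (3.98 to 4.36) in siCDCA3-1 and 0.243 (0.224 to 0.264) in siCDCA3-2. ABCG1, which passes cholesterol to lipoprotein particles, had 4.54 RPKM in siCDCA3-1 and 0.501 RPKM in siCDCA3-2, against 4.87 RPKM in siNC, from 1416, 241 and 1903 reads. It was near siNC in siCDCA3-1, with a ratio of 0.932 (0.869 to 0.999), and at 0.103 of siNC in siCDCA3-2 (0.0896 to 0.118). The level in siCDCA3-2 relative to siCDCA3-1 was 0.0584 for ABCA1 and 0.1103 for ABCG1.

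A fold change over both siCDCA3 libraries does not describe these transporters. For ABCA1 (NM_005502.3, chr9:104781006-104928155) edgeR gave a log2 fold change of 1.21 (SE 1.07, adjusted p = 0.9997). From siCDCA3-1 alone that value was 2.14, and from siCDCA3-2 alone it was -2.10. For ABCG1 (NM_004915.3, chr21:42199689-42297244) the edgeR log2 fold change was -0.89 (SE 0.88, adjusted p = 0.9997), and from the single libraries it was -0.02 in siCDCA3-1 and -3.34 in siCDCA3-2. Of the 16 markers of other cell types only CD68, of macrophages, and COL1A1, a fibroblast collagen, averaged 1 RPKM or more, and both followed the order of ABCA1. CD68 had 1.94 and 0.993 RPKM in siCDCA3-1 and siCDCA3-2, against 1.42 RPKM in siNC, and COL1A1 had 8.33 and 2.26 RPKM, against 6.96 RPKM in siNC. The leukocyte marker PTPRC and the collagen COL1A2 did not exceed 0.0219 RPKM in any library. The 5 leukocyte markers summed to 2.70 and 1.40 RPKM in siCDCA3-1 and siCDCA3-2, against 1.96 RPKM in siNC, and the 5 fibroblast markers to 8.57 and 2.37 RPKM, against 7.11 RPKM in siNC. CD68 made up most of the leukocyte sum and COL1A1 nearly all of the fibroblast sum, so the sums largely repeat CD68 and COL1A1. The part of these markers in the ABCA1 and ABCG1 values was not tested.

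Set directly against each other, the siCDCA3 libraries divided the 30 genes evenly, with 15 higher in siCDCA3-2, where the share of all genes tested was 57.8%. A 2-fold difference on the log2(RPKM + 1) scale was reached at 3 genes that were higher in siCDCA3-2, HMGCS1, LBR and IDI1 (4.9% of all genes), and at 3 that were lower in it, ABCA1, ABCG1 and TM7SF2 (3.72% of all genes). By step, the median of siCDCA3-2 minus siCDCA3-1 was 0.10 for the mevalonate and isoprenoid genes, 0.39 for the squalene and sterol genes, -0.32 for SREBP2 control, -0.35 for uptake and transport and -2.21 for efflux. Over all genes tested it was 0.10. With 1 library on each side, this comparison has no replicate and no test.

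**Figure D5:**
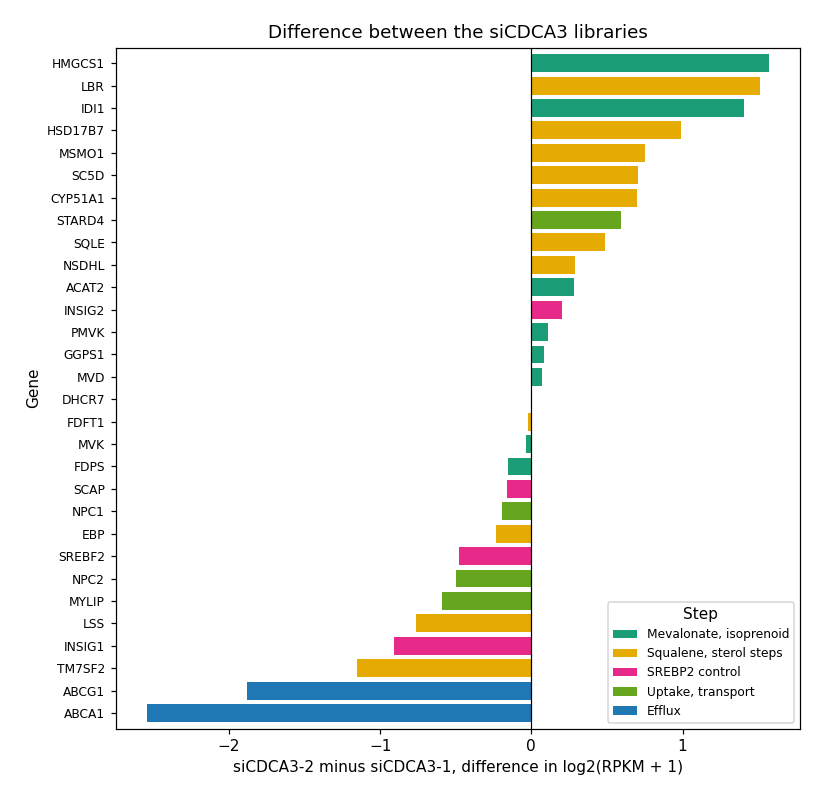
Difference in log2(RPKM + 1), siCDCA3-2 minus siCDCA3-1, on the horizontal axis for each of the 30 genes, coloured by step, 1 library on each side. HMGCS1 is at the top at 1.57 and ABCA1 at the bottom at -2.55, with both efflux genes at the low end.

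Further genes of sterol, isoprenoid and fatty acid metabolism, 41 that are not among the 30, varied by list. Of the 40 tested, 11 lay above siNC in both siCDCA3 libraries (27.5%, beside 23.6% of all genes) and 7 below in both (27.8% of all genes), and 0 passed the edgeR threshold. None of them had an unadjusted edgeR p under 0.05. Of 10 acetyl-CoA and fatty acid genes that SREBP factors also drive, 6 lay above siNC in both siCDCA3 libraries (60%, beside the same 23.6% of all genes). FASN, fatty acid synthase, had 109.9 and 79.1 RPKM in siCDCA3-1 and siCDCA3-2, against 54.4 RPKM in siNC. ELOVL6, a fatty acid elongase, had 3.09 and 5.49 RPKM in siCDCA3-1 and siCDCA3-2, against 2.56 RPKM in siNC. FASN was thus highest in siCDCA3-1 and ELOVL6 in siCDCA3-2. ACLY, which makes cytosolic acetyl-CoA, had 58.2 and 46.8 RPKM in siCDCA3-1 and siCDCA3-2, against 42.5 RPKM in siNC. LPIN1, a phosphatidate phosphatase, had 1.03 and 1.49 RPKM, against 0.920 RPKM in siNC. FADS1, a fatty acid desaturase, had 28.5 and 24.1 RPKM in siCDCA3-1 and siCDCA3-2, against 31.8 RPKM in siNC, and was the only one of the 10 below siNC in both.

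SREBF1, which encodes SREBP1 and is also induced by LXR, had 21.7 RPKM in siCDCA3-1 and 6.99 RPKM in siCDCA3-2, against 16.3 RPKM in siNC. Like ABCA1 and MYLIP, it was highest in siCDCA3-1 and lowest in siCDCA3-2. ABCG1, which LXR also switches on, differed in being highest in siNC, at 4.87 RPKM against 4.54 RPKM in siCDCA3-1. The LXR list of NR1H2, NR1H3 and LPCAT3 had 0 of 3 genes above siNC in both siCDCA3 libraries, beside 23.6% of all genes. A list of 3 genes is too small to tell these apart. NR1H2, the LXR beta receptor, had 13.8 and 13.1 RPKM in siCDCA3-1 and siCDCA3-2, against 13.2 RPKM in siNC. NR1H3, the LXR alpha receptor, had 1.66 and 1.24 RPKM in siCDCA3-1 and siCDCA3-2, against 1.39 RPKM in siNC. LPCAT3, a phospholipid-remodelling enzyme, had 12.8 RPKM in siCDCA3-1 and 7.87 RPKM in siCDCA3-2, against 8.70 RPKM in siNC. All 3 were highest in siCDCA3-1 and lowest in siCDCA3-2. The same order held at FDPS, TM7SF2, EBP, SREBF2 and NPC2, which are not named here as driven by LXR. This order thus does not set the LXR genes apart. Of all genes tested, 41.4% lay above siNC in siCDCA3-1, and 23.6% did so in both siCDCA3 libraries. For NR1H2 the counting intervals of the ratio to siNC spanned equality in siCDCA3-1 (0.997 to 1.10) and in siCDCA3-2 (0.948 to 1.04). That of NR1H3 did so in siCDCA3-2 (0.771 to 1.04).

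In the machinery of activation and degradation, 3 of 10 genes lay above siNC in both siCDCA3 libraries, beside 23.6% of all genes. In both libraries 2 lay below it, beside 27.8% of all genes. TMEM97, a sterol-regulated membrane protein, had 10.3 and 17.2 RPKM in siCDCA3-1 and siCDCA3-2, against 8.23 RPKM in siNC. RNF139, a ubiquitin ligase, had 5.99 and 6.55 RPKM, against 4.83 RPKM in siNC. ERLIN1 and ERLIN2 encode partner proteins of the endoplasmic reticulum membrane and differed in direction. ERLIN1 had 4.57 and 6.15 RPKM in siCDCA3-1 and siCDCA3-2, against 4.48 RPKM in siNC. ERLIN2 had 4.28 and 2.76 RPKM, against 4.39 RPKM in siNC.

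Among transport and storage genes 2 of 9 were above siNC in both (beside 23.6% of all genes) and 3 below (beside 27.8%). SCARB1, a receptor for high-density lipoprotein, had 21.8 and 22.2 RPKM in siCDCA3-1 and siCDCA3-2, against 15.9 RPKM in siNC. LIPA, lysosomal acid lipase, had 6.58 and 7.28 RPKM, against 4.94 RPKM in siNC. STARD5, a sterol carrier like STARD4, had 2.15 and 1.66 RPKM, against 3.41 RPKM in siNC. The genes of the oxysterol-binding proteins OSBP and OSBPL2 also lay below siNC in both siCDCA3 libraries. OSBP had 9.08 and 9.86 RPKM, against 11.4 RPKM in siNC, and OSBPL2 had 8.38 and 6.43 RPKM, against 8.96 RPKM in siNC. Of 8 genes that use isoprenoids 0 were above siNC in both, beside 23.6% of all genes. FNTA, a farnesyltransferase subunit, was below in both at 7.25 and 8.81 RPKM, against 9.98 RPKM in siNC.

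The choice of transcript changed the members' values little, with limited exceptions. Transcripts of a gene can share reads, so close ratios among them are partly fixed in advance and are no independent check. HMGCS1 had 8 listed transcripts, whose ratio to siNC ran from 2.04 to 2.13 in siCDCA3-1 and from 6.70 to 7.04 in siCDCA3-2. INSIG1 also had 8, with ratios from 3.51 to 3.63 in siCDCA3-1 and from 1.78 to 1.95 in siCDCA3-2, and the 6 transcripts of ABCG1 ran from 0.103 to 0.107 in siCDCA3-2. The transcripts of STARD4 and PMVK lay on both sides of siNC in one of the siCDCA3 libraries. Over the 7 transcripts of STARD4 the siCDCA3-1 ratio ran from 0.816 to 1.24, and over the 3 of PMVK the siCDCA3-2 ratio ran from 0.919 to 1.05. Reads of the 8 annotated pseudogenes of FDPS, the 3 of CYP51A1 and the 2 of HSD17B7 may be shared with their parent genes, so these levels are uncertain. In the GENCODE annotation, exons of other genes overlap 79.4% of the exon bases of CYP51A1 (AC000120.2, same strand), 37.3% of those of GGPS1 (TBCE, same strand) and, on the opposite strand, 33.9% (SOD2-OT1) and 26.5% (SOD2) of those of ACAT2. The sources used here do not state whether the counting used strand, so reads of overlapping genes cannot be told apart.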

How the data were processed

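RNA from 3 libraries of 5637 cells was sequenced after removal of ribosomal RNA, per the labels' protocols. Per the submitters' processing notes, Trimmomatic 0.36, FastQC, HISAT2 and HTSeq were used, and a human and a mouse build are listed without a role; the RefSeq table of GRCh38.p14, which gave coordinates, held 98.6% of the accessions. Per the file headers, the deposited table holds a count of reads and an RPKM for each of 45006 RefSeq transcripts; the authors' RPKM equals count over length over a single total per library (104153360 in siCDCA3-1, 160640877 in siCDCA3-2 and 130459616 in siNC). Transcripts of a gene can share reads, so they were not summed.

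The main test was edgeR 4.0.16 (R 4.3.3) on the counts, with TMM scaling: its two-sided quasi-likelihood test of both siCDCA3 libraries together against siNC, Benjamini-Hochberg adjusted over the 10153 genes that reached a mean of 1 RPKM, at a threshold of 0.05. With 1 residual degree of freedom, siNC is taken to vary as much as the siCDCA3 libraries do. The edgeR test added 12 prior degrees of freedom, so its spread for a gene came mostly from other genes. Standard errors were back-computed from F. DESeq2 1.42.0 and limma 3.58.1 on log2(RPKM + 1) were alternatives. The fits were also run on simulated counts, where recovery of changed genes by edgeR was required only at a spread below the fitted one. That run does not show how many changed genes would be called at the fitted spread. A log2(RPKM + 1) difference understates the change of low genes. Ratio intervals are exact 95% binomial intervals (Clopper-Pearson). The members and lists were chosen with earlier results of these data known. All 30 genes are named; of the other lists, up to 4 genes per list and direction are named, ranked by the smaller of their changes in the siCDCA3 libraries, and SREBF1; 1 gene that this rule names is not reported here. The LXR genes went opposite ways and were named after their values were seen, as were CD68, COL1A1, PTPRC and COL1A2.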

Additional observations from a re-analysis of the deposited data

How the results depend on the processing

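None of the 30 genes passed the adjusted threshold under DESeq2, limma, median-of-ratios scaling, no filter on low values, a mean RPKM of at least 5 or the longest transcript, and the lowest adjusted p over these was 0.2447, for HMGCS1 without the filter. Over all genes the count past the threshold was 3, and it was 10 with DESeq2, 0 with limma, 22 without the filter and 0 at a mean RPKM of at least 5. The count of genes above siNC in both siCDCA3 libraries ran from 15 to 18 over scaling, filter and transcript, and was 20 to 24 with a single siCDCA3 library kept. The count below siNC was 1 at a mean RPKM of at least 5, and 6 to 10 with 1 siCDCA3 library kept. The count at least 2-fold above siNC was 4 with a pseudocount of 0.1, and 4 to 8 with 1 siCDCA3 library kept. The median difference in siCDCA3-1 was 0.46 at a mean RPKM of at least 5, where 23 of the 30 genes are left. Of 173 alternative log2 fold changes of single genes, 4 changed sign, all close to 0: PMVK (-0.04), FDPS (-0.032) and NPC2 (-0.032) without the filter, and NPC2 with limma (-0.024). The cause was not tested. With 1 siCDCA3 library kept, the sign depended on which one for 10 of the 30 genes: TM7SF2, LBR, EBP, FDPS, SREBF2, STARD4, NPC1, NPC2, ABCA1 and MYLIP. Those fits have no residual degree of freedom and give no test. No paired analysis was possible because siNC has 1 library and the labels give it no replicate number. Genes at an unadjusted p under 0.05 numbered 4 to 7 over the alternative fits, which were added for this count after seeing the data. The spread between siNC cultures was not measured.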
